A study of Mus musculus with 6 samples.

Results

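The 10 genes described here are the transcription factor NRF2 (gene Nfe2l2), its inhibitor Keap1 and 8 genes that NRF2 is known to activate: Slc7a11, Gclc, Gclm, Gsta4, Txnrd1, Srxn1, Nqo1 and Hmox1. They were chosen by name, and every non-control probe that the array files assign to them was taken, which gave 16 probes for 10 of 10 genes, out of 56605 probes; the 10 genes are 10 of 19752 features tested. RNA came from skin tumours of male mice, 3 tumours labelled P2ry6+/+ (called wild-type) and 3 labelled P2ry6-/- (called knockout), each hybridised to a 1-colour Agilent array. The product of P2ry6 is a cell-surface receptor activated by UDP, and the series compares tumours by its genotype. Both genotypes, 12 mice each, were given DMBA, a mutagen (195 nmol on the back), and afterwards TPA, a tumour promoter (16 nmol per application), up to week 22. All tumours therefore carried the same carcinogen and promoter exposure, and untreated skin was not analysed here. The labels give neither strain nor age, nor whether the 3 tumours of a genotype came from 3 mice, so p-values measure only the spread between these samples.

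NRF2 is the main transcriptional switch of the antioxidant response. In unstressed cells KEAP1 binds it and presents it to a CUL3 ubiquitin ligase for destruction. Oxidants and electrophiles modify cysteines of KEAP1, NRF2 then accumulates, pairs with a small MAF protein and binds antioxidant response elements in its target genes. The control of NRF2 is thus largely at the protein level, which an array does not read. In skin the pathway is known for detoxifying carcinogens and for protecting keratinocytes against reactive oxygen.

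The antioxidant response element has the core TGACNNNGC, and the form TGAGNNNGC has G in place of C. Both were searched on both strands in RefSeq promoter windows of 300 bases (250 before a transcript's start and 50 after, build GRCm38.p6), because shared elements are the textbook link between these genes. Of the members, 7 of 10 matched the table, with 9 windows; Gclc, Hmox1 and Gsta4 did not. The core TGACNNNGC occurred in 4 of the 9 windows, of Nfe2l2, Gclm, Srxn1 and Txnrd1, and in 12.4% of all 32851 windows. The form TGAGNNNGC occurred in 2, of Srxn1 and Slc7a11, and in 17.6% of all windows. The AP-1 site TGACTCA, which TPA-responsive genes often carry and which can overlap the element, occurred in 1 member window (Srxn1) and in 5.20% of all. The stretches below are the parts of these windows before the start that hold a core, read 5′ to 3′ along the gene, with the core or its reverse complement in capitals.
Nfe2l2, chr2:75704875-75704913, minus strand: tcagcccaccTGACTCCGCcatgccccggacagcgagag
Gclm, chr3:122245403-122245451, plus strand: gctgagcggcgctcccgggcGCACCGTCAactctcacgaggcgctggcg
Srxn1, chr2:152105346-152105507, plus strand: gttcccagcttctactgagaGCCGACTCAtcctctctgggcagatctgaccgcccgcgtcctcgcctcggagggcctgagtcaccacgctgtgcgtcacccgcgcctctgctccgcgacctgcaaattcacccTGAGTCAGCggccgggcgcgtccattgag
Slc7a11, chr3:50443682-50443730, minus strand: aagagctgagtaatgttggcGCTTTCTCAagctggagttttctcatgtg
Txnrd1, chr10:82859094-82859142, plus strand: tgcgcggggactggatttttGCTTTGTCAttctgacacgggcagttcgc
The Srxn1 stretch holds 2 matches to the form with G. The second of them, TGAGTCAGC, overlaps an AP-1 site and lies 45 to 37 bases before the start. A further match to TGACNNNGC in Srxn1 lay after the start, and the Txnrd1 stretch belongs to 1 of its 3 annotated starts. A match in these letters is a description of sequence and no evidence of binding in these tumours.

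Values are log2 of the processed signal minus the array's 75th percentile, so 0 lies at that percentile and a step of 1 is 2-fold. Each array had 54.2% to 59.4% of its non-control spots well above background, the scanner program's mark for a measured spot. The slide position followed genotype in part: the second number of the position was 1, 1 and 2 for wild-type tumours 1, 2 and 3, and 2, 3 and 3 for labelled knockout tumours 1, 2 and 3. The first number was 2, 1 and 2 for wild-type and 1, 1 and 2 for labelled knockout tumours. It is called slide column here for short, and which of the numbers counts rows and which columns was not established. Fits with slide column as a block use this first number, and the second number was in no fit. P2ry6 read higher, not lower, in the labelled knockout tumours at both of its probes. Its brighter probe gave 0.06 ± 0.13 (SD, n = 3) against -0.36 ± 0.33 (SD, n = 3) in wild-type tumours. The other gave -1.21 ± 0.25 (SD, n = 3) against -1.77 ± 0.37 (SD, n = 3). Whether either probe lies in the deleted part is not stated, so genotype follows the labels. Of the keratinocyte markers tested, 7 basal and 8 suprabasal, 0 were below background on all arrays of either genotype. Markers of skeletal muscle, fat, sebaceous gland and hair follicle had mean levels that were lower in labelled knockout tumours and did not overlap between genotypes. Mean levels of suprabasal keratinocyte markers were higher there without overlap, 6.37 to 6.66 against 5.89 to 6.20 in wild-type tumours. Of the 8 suprabasal genes, 6 read higher and 2, Tgm1 and Tgm3, lower in labelled knockout tumours. Only 3 of the 8 (Krt10, Ivl and Krtdap) did not overlap, against 19.9% of all features. Neutrophil markers also had higher mean levels in labelled knockout tumours without overlap, 2.32 to 2.71 against 1.89 to 2.11. Of 7 neutrophil genes, 6 read higher and 1, Elane, lower. Only 3 of the 7 (S100a8, S100a9 and Mpo) did not overlap, against 19.9% of all features, while Ly6g, Cxcr2 and Csf3r overlapped. Mean levels of the other marker lists overlapped. The mean level of 12 muscle genes was -1.16 to 3.56 in wild-type and -4.76 to -4.33 in labelled knockout tumours, where 7 of the 12 (Actn3, Ckm, Mb, Myh2, Myh4, Myl1 and Tnnc2) were below background on every array. That of 9 adipocyte genes was -0.04 to 1.09 against -2.55 to -2.31, with Adipoq, Cfd and Retn below background on every knockout array. Of the 9, 8 read lower and 1, Lep, higher in labelled knockout tumours. Fabp4 overlapped, with means of 7.97 in wild-type and 7.43 in labelled knockout tumours, and Lpl differed by -0.06. For 6 sebaceous gland genes it was -0.72 to 3.72 against -2.43 to -1.13, and for 9 hair follicle genes -0.29 to 2.91 against -2.53 to -0.43, with 0 of either below background on every knockout array. All 6 sebaceous gland genes and 8 of 9 hair follicle genes read lower in labelled knockout tumours, and Padi3 read higher. In bulk tissue, fewer cells of a type and less RNA per cell cannot be told apart.

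No member differed between genotypes past the threshold. In limma's fit over 19752 features, 0 of 10 members had an adjusted p under 0.05, against 0.167% of all features, and 0 of 15 tested probes did, against 0.151% of all probes; 0 had an unadjusted p under 0.05, against 13.5%. The genotypes overlapped for all 10 members, whereas they did not overlap for 19.9% of features. Of the 10, 8 read lower and 2 higher in labelled knockout tumours, where 54% of all features read higher. Their log2 differences had a median of -0.25, against 0.03 for all features; it was -0.48 without wild-type tumour 2, -0.036 without wild-type tumour 1, -0.045 without labelled knockout tumour 2, -0.14 without wild-type tumour 3 and -0.025 with slide column as a block. A difference of 2-fold or more was read for 1 member, Gclm, against 5.94% of features. The differences ran from -1.03 for Gclm to 0.38 for Hmox1. All 10 genes were well above background on all 6 arrays at the probe used, so no level here is only a bound. The 95% intervals of Nfe2l2, Slc7a11, Gclc, Gclm and Gsta4 reach below -1, so a level 2-fold lower in labelled knockout tumours lies within them.

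**Figure D1:**
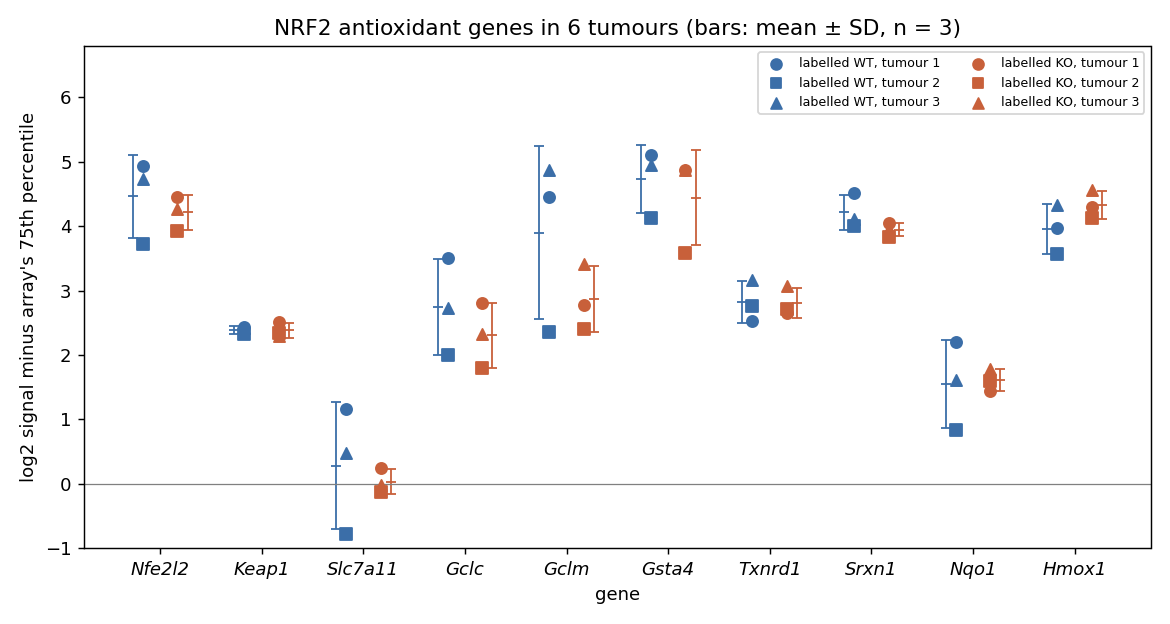
Log2 signal relative to each array's 75th percentile for the 10 genes, with a marker for each tumour and bars for the mean ± SD (n = 3) of labelled wild-type (blue) and labelled knockout (orange) tumours. The genotypes overlap for every gene, Keap1 spans 0.11 in wild-type tumours, and Gclm spans 2.51 there.

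Nfe2l2, the gene of NRF2 itself, read 4.94, 3.73 and 4.73 in wild-type tumours 1, 2 and 3 and 4.46, 3.92 and 4.27 in labelled knockout tumours 1, 2 and 3. The knockout values lie inside the wild-type range. The difference was -0.25 (SE 0.34, 95% interval -1.06 to 0.56, limma adjusted p = 0.795). This probe lies on chromosome 2 from 75513771 to 75513830 (mm9, as are all probe positions) and is assigned to the RefSeq transcript. A second probe, from 75529291 to 75529350 and assigned to an Ensembl transcript, read -0.22, -1.20 and -0.42 in wild-type and -0.18, -1.25 and -1.21 in labelled knockout tumours. It gave nearly the same difference, -0.27 (SE 0.37, adjusted p = 0.805 over all 29721 probes tested). Both probes were lowest in tumour 2 of each genotype.

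Keap1, the cysteine-rich sensor that holds NRF2 in check, varied least of the 10 in wild-type tumours. It read 2.44, 2.32 and 2.43 in wild-type and 2.51, 2.34 and 2.30 in labelled knockout tumours. The knockout values span 0.21, as do those of Srxn1, and the wild-type values lie inside that span. The difference was -0.01 (SE 0.14, limma adjusted p = 0.984), and its 95% interval, -0.35 to 0.33, corresponds to 0.786-fold to 1.25-fold, the narrowest of the members. Its single probe is shown because its 60 letters cover 441 bases of chromosome 9 (21035292 to 21035732, minus strand), so it reads across a splice junction and detects spliced RNA.
Keap1 probe: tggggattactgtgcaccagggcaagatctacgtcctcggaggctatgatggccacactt

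Glutathione supply begins with Slc7a11, the light chain of the cystine importer, on whose cystine glutathione synthesis depends. Its brightest probe (chromosome 3 from 50176047 to 50176106) read 1.15, -0.78 and 0.47 in wild-type and 0.25, -0.13 and -0.02 in labelled knockout tumours. Wild-type tumours 1 and 2 were the highest and the lowest of all 6, with the labelled knockout tumours between them. The difference was -0.25 (SE 0.47, 95% interval -1.37 to 0.87, limma adjusted p = 0.854). A second probe of the RefSeq transcript (50169700 to 50169759) read 0.34, -2.04 and -0.37 in wild-type and -0.95, -1.22 and -1.42 in labelled knockout tumours, and differed by -0.51 (SE 0.56, adjusted p = 0.749 over probes). Another, assigned to an Ensembl transcript (50246786 to 50246845), read -1.16, -2.16 and -0.53 against -1.74, -2.46 and -2.24. Its difference of -0.86 (SE 0.42, adjusted p = 0.440 over probes) was the largest of the 3, and wild-type tumour 2 still lay among the knockout values. The fourth probe (50221136 to 50221195) was not well above background on any array and was not tested.

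Gclc and Gclm encode the catalytic and the modifier subunit of glutamate-cysteine ligase, the rate-limiting enzyme of glutathione synthesis. Gclc (chromosome 9 from 77641296 to 77641355) read 3.50, 2.01 and 2.73 in wild-type and 2.80, 1.80 and 2.33 in labelled knockout tumours. Tumours 2 were the lowest of both genotypes. The difference was -0.44 (SE 0.42, 95% interval -1.45 to 0.58, limma adjusted p = 0.703). It was -0.059 without wild-type tumour 1, -0.81 without wild-type tumour 2, -0.18 without labelled knockout tumour 2 and -0.68 without labelled knockout tumour 1.

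Gclm had the largest difference of the 10 and the widest range in wild-type tumours (2.51), while in labelled knockout tumours Gsta4 ranged wider (1.28 against 1.02). Its probe (chromosome 3 from 121967737 to 121967796) read 4.45, 2.36 and 4.88 in wild-type and 2.78, 2.40 and 3.42 in labelled knockout tumours. Wild-type tumours 1 and 3 lay above every labelled knockout tumour, and wild-type tumour 2 lay below all of them. The mean was 3.90 ± 1.35 (SD, n = 3) in wild-type and 2.87 ± 0.51 (SD, n = 3) in labelled knockout tumours, which put the difference at -1.03 (SE 0.66, limma adjusted p = 0.547). The 95% interval, -2.61 to 0.54, holds changes from 0.164-fold to 1.46-fold. Without wild-type tumour 2 the difference was -1.80 (SE 0.33, adjusted p = 0.093); without wild-type tumour 3 it was -0.54, without wild-type tumour 1 -0.75, and with slide column as a block -0.51.

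Gsta4 encodes a glutathione transferase that conjugates 4-hydroxynonenal, a product of lipid peroxidation. Its probe covers 1173 bases of chromosome 9 (78046172 to 78047344) and so also reads across a splice junction. It read 5.11, 4.13 and 4.95 in wild-type and 4.87, 3.59 and 4.87 in labelled knockout tumours. Tumour 2 stood below the others in both genotypes. The difference was -0.29 (SE 0.43, 95% interval -1.31 to 0.73, limma adjusted p = 0.810), and without labelled knockout tumour 2 it was 0.14.

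In the thioredoxin branch, Txnrd1 encodes the cytosolic reductase that keeps thioredoxin reduced. Its brighter probe (chromosome 10 from 82360230 to 82360289) read 2.53, 2.76 and 3.17 in wild-type and 2.65, 2.72 and 3.08 in labelled knockout tumours. The genotypes interleave, with tumour 3 highest in each. The difference was -0.01 (SE 0.22, 95% interval -0.53 to 0.52, limma adjusted p = 0.994). The other probe (82338379 to 82338438) gave 0.12 (SE 0.23, adjusted p = 0.866 over probes). Txnrd1 did not share the low value of wild-type tumour 2: there tumour 1 was lowest at both probes.

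Srxn1 encodes sulfiredoxin, which reactivates over-oxidised peroxiredoxins, and its promoter stretch above carries the element that overlaps an AP-1 site. Its probe (chromosome 2 from 151937009 to 151937068) read 4.52, 4.01 and 4.12 in wild-type and 4.04, 3.84 and 3.95 in labelled knockout tumours. The genotypes overlapped by a single pair, wild-type tumour 2 lying below labelled knockout tumour 1. The difference was -0.27 (SE 0.18, 95% interval -0.70 to 0.17, limma adjusted p = 0.572), and the two-sided exact permutation test gave p = 0.2, where 0.1 is the smallest p that 3 against 3 allows. The genotypes did separate with normexp background correction, with quantile normalization and in the series value table, at limma adjusted p of 0.426, 0.505 and 0.517. In those settings they did so for 22.2%, 19.4% and 19.4% of all features. They also separated without labelled knockout tumour 1, as for 35% of features, and without wild-type tumour 2, as given below.

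Nqo1 encodes the quinone reductase that is the classical reporter of NRF2 activity. Its probe (chromosome 8 from 109912440 to 109912499) read 2.20, 0.84 and 1.61 in wild-type and 1.44, 1.60 and 1.78 in labelled knockout tumours. The labelled knockout tumours clustered within the wild-type range. The difference was 0.06 (SE 0.34, 95% interval -0.76 to 0.87, limma adjusted p = 0.960), and it turned to -0.30 without wild-type tumour 2.

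Hmox1, which encodes the heme-degrading enzyme heme oxygenase-1, was the 1 member besides Nqo1 that read higher in labelled knockout tumours. Its brighter probe (chromosome 8 from 77624406 to 77624466) read 3.97, 3.57 and 4.33 in wild-type and 4.30, 4.13 and 4.57 in labelled knockout tumours. Wild-type tumour 3 lay above labelled knockout tumours 1 and 2, so the genotypes overlap. The difference was 0.38 (SE 0.24, 95% interval -0.19 to 0.94, limma adjusted p = 0.542). A much dimmer probe assigned to an Ensembl transcript (77620085 to 77620144) gave 0.55 (SE 0.30, adjusted p = 0.497 over probes). Macrophages are a rich source of heme oxygenase-1, and the mean level of 10 macrophage markers was 0.99, 0.93 and 0.15 in wild-type and 0.82, 0.71 and 0.86 in labelled knockout tumours. Among wild-type tumours, number 3 had the lowest marker level and the highest Hmox1; among labelled knockout tumours, markers and Hmox1 had the same order, and the part of these cells in the Hmox1 values was not tested.

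**Figure D2:**
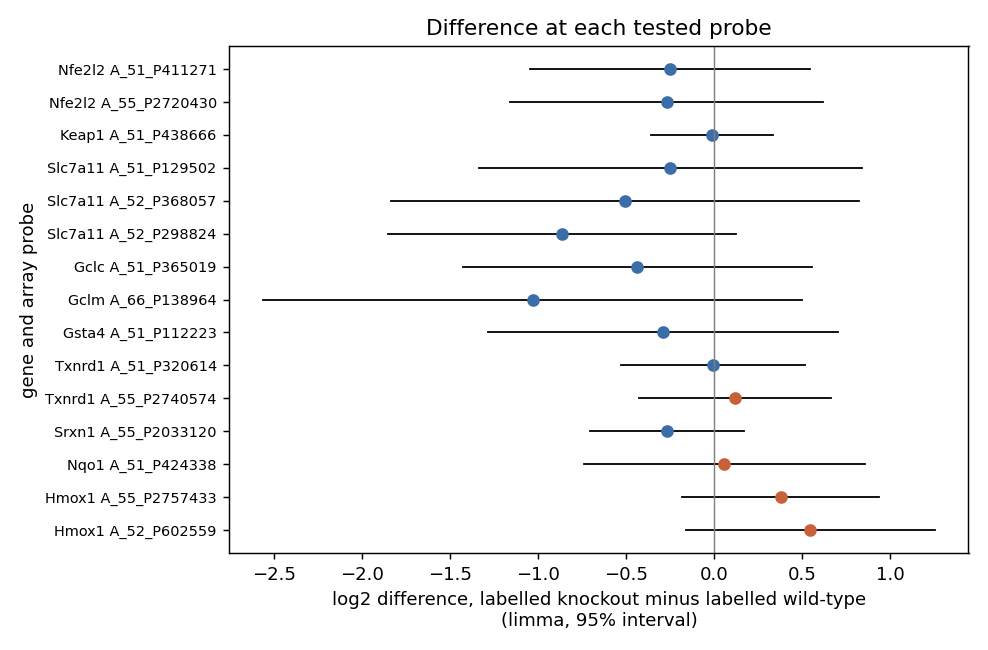
Log2 difference, labelled knockout minus labelled wild-type, at each of the 15 tested probes of the 10 genes, with limma's 95% interval; points are blue below 0 and orange above. Every interval crosses 0, and that of Keap1 is the narrowest.

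The members varied among tumours of 1 genotype, more in the wild-type. The range over the 3 wild-type tumours had a median of 1.09 over the members and that over the 3 labelled knockout tumours 0.43, against 0.52 and 0.39 over all features. The SD was larger in wild-type tumours for 8 of 10 members, the exceptions being Keap1 and Gsta4; over all features it was larger in wild-type tumours for 12605 of 19752. Wild-type tumour 2 was the lowest wild-type tumour for 9 of 10 members, the exception being Txnrd1, and it was the lowest for 41.8% of all features. Knockout tumour 2 was the lowest labelled knockout tumour for 7 of 10 members, against 31.5% of features. The same 7 of 10 were lowest in tumour 2 of both genotypes, Nfe2l2, Slc7a11, Gclc, Gclm, Gsta4, Srxn1 and Hmox1, against 16.1% of features. The labels do not say that tumours with the same number belong together. Tumour 2 of each genotype and labelled knockout tumour 1 lay in slide column 1, and the other tumours in slide column 2. The part of slide position in these low readings was not tested.

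**Figure D3:**
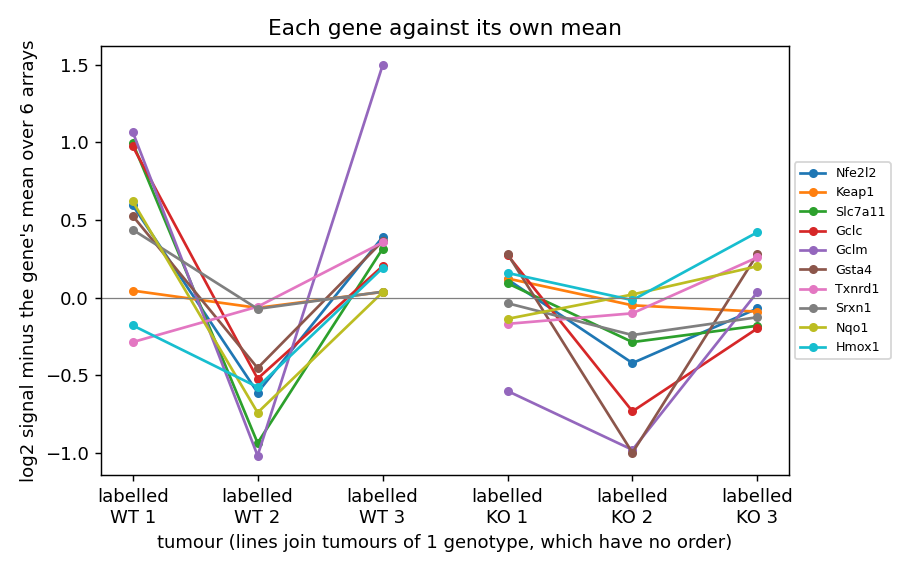
Log2 signal of each gene minus its own mean over the 6 arrays, by tumour; lines join tumours of a genotype, which have no order. Wild-type tumour 2 lies lowest among wild-type tumours for 9 of 10 genes, Txnrd1 being the exception, and labelled knockout tumour 2 lies lowest among labelled knockout tumours for 7.

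Marker levels of other tissues moved with wild-type tumour 2. The mean level of the muscle markers was -1.16, 3.56 and 0.31 in wild-type tumours 1, 2 and 3, and that of 6 sebaceous gland markers 0.57, 3.72 and -0.72. The fibroblast markers averaged 2.78, 3.23 and 1.43 in the wild-type and 3.11, 3.65 and 2.30 in the labelled knockout tumours, so they were highest in tumour 2 of each genotype. Basal keratinocyte markers averaged 5.49, 5.32 and 6.10 in wild-type and 5.45, 5.71 and 5.77 in labelled knockout tumours, lowest in wild-type tumour 2. Of 7 basal markers, 5 were lowest of the wild-type in that tumour, while Krt5 was highest there (8.71, 9.04 and 8.70). Suprabasal keratinocyte markers averaged 6.20, 6.16 and 5.89 in wild-type and 6.66, 6.40 and 6.37 in labelled knockout tumours, lowest in tumour 3 of each. The part of these tissues in the member values was not tested. Without wild-type tumour 2, 9 of 10 members read lower in labelled knockout tumours and 5 of 10 did not overlap (Nfe2l2, Slc7a11, Gclm, Gsta4 and Srxn1), against 38.3% of features in that comparison. That tumour was the lowest wild-type tumour for 9 of 10 members, so leaving it out moves their differences down by construction. It was the lowest for 41.8% of features, so the 38.3% is not a like comparison. Still 0 of 10 passed, against 0.636% of features; the values were -0.62 for Nfe2l2 (limma adjusted p = 0.232) and -0.78 for Slc7a11 (adjusted p = 0.221). Without wild-type tumour 1 they were -0.014 and 0.19.

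The wider pathway was read from 8 lists with 85 genes, of which 84 were on the array and 83 were tested. Of these 83, 56 read lower and 27 higher in labelled knockout tumours. The median was -0.22, against 0.03 for all features. Mean levels of muscle, fat, sebaceous gland and hair follicle markers were also lower in labelled knockout tumours. The part of these tissues in the values of the wider lists was not tested. The genotypes did not overlap for 24 of 83, against 19.9% of features: 16 were lower, against 6.98%, and 8 higher, against 12.9%. With limma's adjusted threshold 1 of 83 passed, lower in labelled knockout tumours, where 0.111% of all features passed in that direction.

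That gene was Aldh1a1, which encodes an aldehyde dehydrogenase that oxidises retinal and lipid aldehydes. It read -1.17, -0.88 and -1.41 in wild-type and -2.91, -2.62 and -2.84 in labelled knockout tumours, every knockout value below every wild-type value. The gene fell in limma's fit, by a log2 difference of -1.64 (SE 0.19, adjusted p = 0.047). The call was lost under 11 of 18 alternatives, among them normexp background correction (-0.98, adjusted p = 0.138) and leaving out any of 5 tumours, with adjusted p from 0.051 to 0.187; it held without wild-type tumour 2.

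Aldh1a1 belongs to the list of quinone, carbonyl and drug metabolism, where 1 of 15 passed. With it counted, 11 of 15 read lower and 4 higher, with a median of -0.40. Aldh3a1, an aldehyde dehydrogenase of surface epithelia, read 5.31, 2.80 and 2.65 in wild-type and 1.89, 1.37 and 1.73 in labelled knockout tumours (difference -1.92, limma adjusted p = 0.321), so wild-type tumour 1 carried much of the gap; without it the difference was -1.06. The carbonyl reductase genes Cbr1 and Cbr3 differed by -0.55 and -0.12 (adjusted p = 0.353 and 0.905), and Nqo2, a relative of Nqo1, by 0.13 (adjusted p = 0.838).

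Glutathione transferases, which attach glutathione to electrophiles, read lower for 11 of 13 genes, with a median of -0.72; 0 passed. Mgst1, a membrane-bound transferase, read 3.86, 5.39 and 3.89 in wild-type and 3.12, 2.87 and 2.41 in labelled knockout tumours (difference -1.58, limma adjusted p = 0.252; -1.49 at its other probe). Gstt1 read -2.37, 1.50 and -2.37 against -3.61, -2.95 and -3.80 (difference -2.38, adjusted p = 0.383), so wild-type tumour 2 was far above the rest; without it the difference was -1.09. Mgst1 and Gstt1, like Aldh3a1, Sod3 and Ggct below, are named because their genotypes do not overlap and differ by at least 2-fold. Gsta2, Gsta3 and Gstm1 differed by -0.51, -1.49 and -1.05 (adjusted p = 0.773, 0.573 and 0.534). Without wild-type tumour 2, Gstm1 and Gstm3 passed, at -1.85 and -1.90 (adjusted p = 0.033 and 0.040), in a comparison where 0.636% of features passed. Both genes were lowest of the wild-type in that tumour (0.77 and 1.54), so leaving it out widens their differences by construction. Gstm1 was -0.67 without wild-type tumour 1, -0.62 without wild-type tumour 3 and -0.63 with slide column as a block. These genes have close relatives, and whether a probe also binds a relative was not tested.

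Glutathione synthesis and recycling genes split in direction. Of 11 tested, 6 read lower and 5 higher, with a median of -0.35, and 0 passed. Gss, which completes glutathione, and Gsr, which reduces it again, differed by -0.35 and -0.53 (limma adjusted p = 0.654 and 0.592). Gpx1, a selenium peroxidase, read 5.99, 6.39 and 5.81 in wild-type and 6.72, 6.96 and 6.65 in labelled knockout tumours (difference 0.71, adjusted p = 0.253). Ggct, an enzyme of glutathione breakdown, read 4.03, 4.55 and 3.44 against 5.41, 5.25 and 5.01 (difference 1.22, adjusted p = 0.216). Both had all labelled knockout tumours above all wild-type tumours.

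Thioredoxin and peroxiredoxin genes had 6 of 12 on each side of 0, with a median of -0.02, and 0 passed. Txn1, cytosolic thioredoxin itself, read 6.51, 5.97 and 5.67 in wild-type and 6.77, 6.58 and 7.14 in labelled knockout tumours (difference 0.78, limma adjusted p = 0.299), again without overlap. Txn2, mitochondrial thioredoxin, and Txnrd2, the mitochondrial reductase, differed by -0.07 and -0.22 (adjusted p = 0.866 and 0.701).

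Genes for superoxide and peroxide removal read lower for 4 of 4, with a median of -0.74; 0 passed. Sod3, the secreted superoxide dismutase of the matrix, read 0.52, 1.24 and -0.46 in wild-type and -1.11, -1.01 and -1.28 in labelled knockout tumours (difference -1.56, limma adjusted p = 0.234). Cytosolic Sod1 differed by -0.77 (adjusted p = 0.247) and mitochondrial Sod2 by -0.11 (adjusted p = 0.841).

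In the remaining lists 0 genes passed. Of 6 genes that supply NADPH, 5 read lower, with a median of -0.22; G6pdx, Pgd and Tkt of the pentose phosphate pathway differed by -0.07, -0.15 and -0.78 (limma adjusted p = 0.919, 0.768 and 0.201). A second probe of Tkt differed by 0.20, in the other direction. Of 8 heme and iron genes 7 read lower, with a median of -0.19; the biliverdin reductase genes Blvra and Blvrb differed by -0.23 and -0.15, and Hmox2, the constitutive heme oxygenase, by 0.26 (adjusted p = 0.745, 0.884 and 0.629). Regulators of NRF2 had the median nearest to that of all features, 0.03, with 8 of 14 higher. Nfe2l1 and Nfe2l3, relatives of NRF2, differed by 0.03 and 0.32, and Bach1, a repressor that competes for the same elements, by 0.22 (adjusted p = 0.955, 0.530 and 0.799); the genotypes overlapped for all 14.

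**Figure D4:**
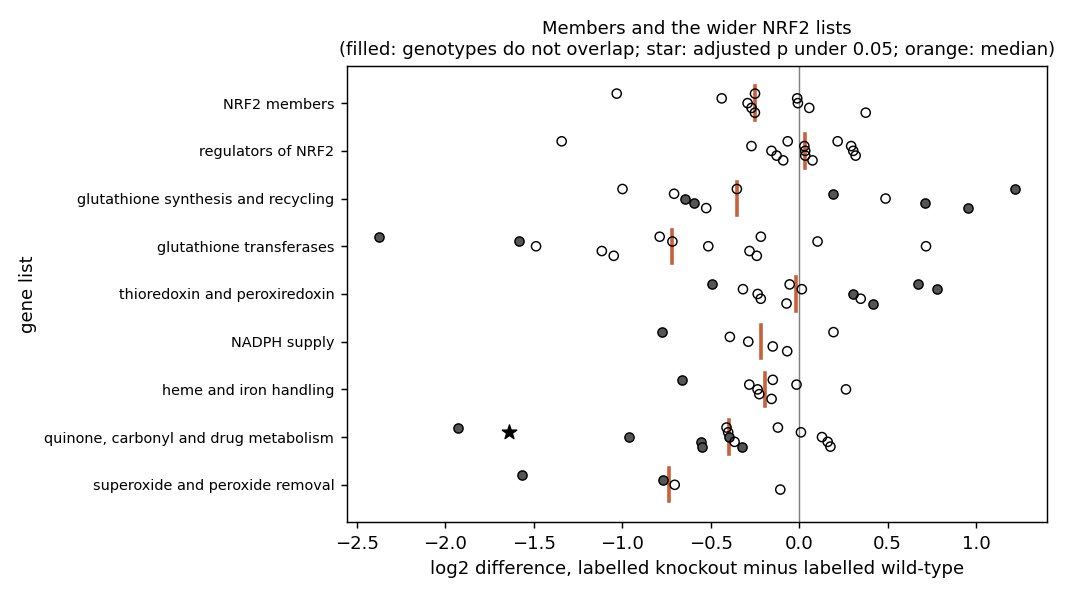
Log2 difference, labelled knockout minus labelled wild-type, for each tested gene of the 10 members and the 8 wider lists; filled points are genes whose genotypes do not overlap, the star is Aldh1a1, which passed limma's adjusted threshold, and orange lines are list medians. All 10 members are open points, and the medians run from -0.74 for superoxide and peroxide removal to 0.03 for the regulators.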

How the data were processed

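RNA of 6 tumours was measured on 1-colour Agilent arrays. Spot brightness is intensity, linear in scale, as deposited; the processed signal was detrended across the slide, per the file headers, while mean and local background signals are raw. The submitters' processing notes name Agilent Feature Extraction 10.7.1.1. The values in the deposited series table are log2, per the comparison made here, and follow the scanner values at r = 0.9994 to 0.99997, with a median of 4.969 in every column; no source used here names its normalization.

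For the comparisons, log2 processed signal was set against the 75th percentile of non-control spots on the same array. Spots marked as outliers by the scanner program (68 to 184 per array) were dropped and the remaining spots of a probe averaged. A probe was tested if all arrays of 1 genotype or both had it well above background (29721 of 56605), and the probe with the highest mean stood for a gene (19752 features). Names came from RefSeq GRCm38.p6 tables: 32994 probes matched by accession, 10224 by symbol, 520 by synonym, and 12867 kept the array's name. Genotypes were compared with limma 3.58.1 in R 4.3.3 (lmFit and eBayes, two-sided, Benjamini-Hochberg over all features, threshold 0.05); p-values given over probes come from the same fit on all probes. The fit was tested on simulated data, where it did not recover changes of 2-fold. A missing call therefore does not exclude a change of that size. The number of arrays limits the precision.

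The members and lists were chosen with earlier results of these data known. Named were all members, the first 3 tested genes of each wider list, those that passed, those that did not overlap and differed by at least 2-fold, and P2ry6; Gstm3 and Gpx2 were named after their values were seen. Background correction, scaling, filter, probe choice, eBayes settings, array weights, value table, replicate block, slide column and each tumour left out were varied; the 75th percentile over probes was added after seeing the data.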

Additional observations from a re-analysis of the deposited data

How the results depend on the processing

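No member passed limma's adjusted threshold in the 18 alternatives, and no member probe in the 17 that apply to probes. Nfe2l2, Gclc, Gclm, Hmox1 and Srxn1 kept their direction in all 18, over -0.62 to -0.014, -0.84 to -0.059, -1.80 to -0.51, 0.18 to 0.57 and -0.41 to -0.12; with slide column as a block Hmox1 (0.53) differed by more than Gclm (-0.51). Of 805 single values under an alternative, 763 kept direction and side of the threshold, 30 turned direction, 11 lost the call (all Aldh1a1) and 1 gained it (Gstm1 without wild-type tumour 2); why was not tested. With the replicate number as a block, 0 of 10 members passed, Gclm had the lowest adjusted p at 0.329, 0 of 83 wider genes passed (Aldh1a1 was lost), and 5 features passed in all against 33; the block changed no other call among the values reported, and deviations of same-numbered tumours correlated at 0.063, 0.26 and 0.14 for numbers 1, 2 and 3. The numbers were not taken as pairs, since the labels do not say that they are and the first value is under 0.1. Wild-type tumour 1 correlated best with knockout tumour 3 (0.097), while the values for numbers 2 and 3 were the highest of any wild-type and knockout tumour. With the block the SE fell for all members but Keap1, from 0.42 to 0.17 for Gclc and from 0.66 to 0.38 for Gclm. Under it 1 member, Gclm, had an unadjusted limma p under 0.05, against 14.9% of features.

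The number of wider genes that passed, 1 as reported, was 0 with normexp, without any filter for dim probes, with only probes measured on all 6 arrays, with eBayes trend and robust settings, and with slide column as a block, and 0 to 3 when a tumour was left out. The number of all features that passed, 33 as reported, was 10 with normexp, 18 without the filter, 5 with only probes measured on all 6 arrays, 91 with array weights, 17 with slide column as a block, and 12 to 127 when a tumour was left out, highest without wild-type tumour 2. The number of members lower in knockout tumours was 5 to 9 when a tumour was left out, lowest without knockout tumour 2.

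These values turned direction. Nqo1 was -0.19 with array weights. Txnrd1 was 0.056 as the mean over its probes, 0.16 with array weights and 0.074 with slide column as a block. Slc7a11 was 0.0014 and Cbr3 0.020 with slide column as a block. Nfe2l1 was -0.00484 with normexp and -0.021 with median centring. With a tumour left out the ranges were -0.075 to 0.031 for Keap1, -0.30 to 0.38 for Nqo1, -0.15 to 0.17 for Txnrd1 (-0.066 to 0.29 at its other probe), -0.78 to 0.19 for Slc7a11 (-1.18 to 0.0096 at its second probe), -0.59 to 0.14 for Gsta4, -0.077 to 0.17 for Nfe2l1, -0.12 to 0.0061 for Txn2, -0.24 to 0.10 for G6pdx, -0.42 to 0.23 for Blvrb, -0.49 to 0.13 for Cbr3 and -0.24 to 0.019 for Sod2.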

Other observations

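The low reading of the members in wild-type tumour 2 and knockout tumour 2 was shared by some lists and not by others. Among glutathione transferases, 8 of 13 were lowest in wild-type tumour 2 within their genotype, 7 of 13 in knockout tumour 2, and 7 of 13 in both, against 16.1% of all features in both. Gpx2, an epithelial glutathione peroxidase, read 7.52, 5.24 and 7.13 in wild-type and 6.35, 4.26 and 6.29 in knockout tumours. Gsta3 read 3.05, -0.54 and 1.77 against -0.15, -1.30 and 1.28. Among regulators of NRF2 0 of 14 were lowest in both, and among thioredoxin and peroxiredoxin genes 1 of 12. In the list that holds Gpx2, glutathione synthesis and recycling, it was 3 of 11, and over all wider lists 21 of 83. None of these counts was tested.

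The fourth Slc7a11 probe, below background on all 6 arrays, lies between the others by position. It read -5.53, -6.61 and -5.12 in wild-type and -6.49, -6.55 and -6.65 in labelled knockout tumours. Below background these values are not measured levels.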
